A study of Mus musculus with 9 samples.

Results

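The transcriptome of the tibialis anterior (TA), a fast muscle at the front of the lower hind limb, was compared between mice labelled Svil-KO and wild-type (WT) mice. Left TA muscles came from 13-month-old males, 3 per genotype, and each mouse gave 1 library. Of the 56805 genes in the deposited table, 14665 reached a normalized count of 10 in at least 3 of the 6 libraries, and these made up the comparison. A normalized count is the number of reads on a gene divided by a factor for the size of the library, so it can be compared between libraries but not between genes of different length. A further 3 libraries of the series, from Svil-Mut mice of the same sex, age and muscle, were used only for the estimate of the spread between mice, and their values are set beside the others for a few genes. Svil-Mut and Svil-KO share the WT mice as controls, so their values are not independent of each other. The labels give no allele for either genotype beyond its name, do not say which part of Svil is altered or in which cells, and give no strain background or litter. Replicates are named by the numbers in the labels, which are 1, 3 and 4 for both WT and Svil-KO, and library values are given in that order throughout.

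Supervillin, the protein encoded by Svil, belongs to the villin and gelsolin family, whose members bind, cap or cut actin filaments. It binds actin filaments and non-muscle myosin II at the cell membrane. In striated muscle it is found at costameres, the rib-like attachments that tie the contractile apparatus to the membrane and, through dystrophin and integrins, to the matrix outside. Skeletal muscle takes up much of the glucose that insulin clears from blood, by moving the transporter GLUT4 to the fibre surface, and the study concerns insulin response, glucose handling and muscle use in mice with altered Svil. The comparison asks which transcripts of a resting fast muscle differ when Svil is altered.

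Each of the 6 libraries held 36234428 to 48762188 reads assigned to genes, and 19282 to 19988 genes were detected. Svil-KO replicate 4 was the deepest. All libraries carry batch label 1. The labelled tissue was checked against 12 genes of skeletal muscle fibres, all of which were present, with sums of 6966500 to 7378900 normalized counts in WT and 6998100 to 7898400 in Svil-KO. Of 13 genes of kidney, liver and skin, 7 were at 0 and 12 stayed below 10 in all 6 libraries. In a principal component analysis of the 6 libraries, the first component (23.1% of the variance) set WT replicate 1 at 52.6 and WT replicate 3 at -53.7, with the other 4 libraries between -4.9 and 6.3. On the second (22.5%) the 3 Svil-KO libraries lay at -21.7 to -15.2 and WT replicate 4 at -28.6, beside them, whereas WT replicates 1 and 3 lay at 43.5 and 41.9. On the third (19.1%) the Svil-KO libraries lay at -48.3 to 26.1 and the WT libraries at 3.3 to 35.2, so no single component of the 3 set the genotypes apart.

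Svil (ENSMUSG00000024236.18, GRCm38 chromosome 18, 4920540 to 5119299, plus strand) was examined first, since it names the genotype. The normalized counts of Svil were 8686, 9373 and 8406 in WT and 7402, 6746 and 6656 in Svil-KO. All 3 Svil-KO libraries were below all 3 WT libraries, at 78.6% of the WT mean, and the Svil-Mut libraries were lower again at 4615, 3939 and 4582. The log2 fold change of Svil-KO over WT was -0.35 with a standard error (SE) of 0.086 and a 95% interval of -0.54 to -0.16. For Svil taken alone the limma p was 0.00204; adjusted over all genes it was 0.997. The exact 2-sided permutation p was 0.1, the smallest that 3 against 3 libraries allow. Most of the Svil count was thus still present in the muscle labelled Svil-KO, and counts summed over a gene do not show whether a transcript was intact. None of the genes beside Svil on its chromosome passed the test. Of the 3 nearest tested genes on each side (4833419F23Rik, Mtpap, Jcad, Zfp438, Gm10125 and Zeb1), 5 overlapped between the genotypes. The other, 4833419F23Rik, a transcript of unknown function 658.7 kb before Svil, stood at 14.2, 10.1 and 11.2 in WT and 15.4, 19.4 and 33.5 in Svil-KO. In Mib1, a ubiquitin ligase of the Notch pathway, the counts were 9818, 7634 and 8474 in WT and 9896, 4939 and 8127 in Svil-KO, against 547, 623 and 496 in Svil-Mut.

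No transcript passed the test between Svil-KO and WT. The test was limma on log2(normalized count + 1), a scale that understates the differences of genes with low counts. With limma and Benjamini-Hochberg adjustment over the 14665 genes, 0 genes (0%) had an adjusted p under 0.05. At an unadjusted limma p under 0.05 there were 596 genes (4.06%), of which 342 (2.33%) had higher and 254 (1.73%) lower values in Svil-KO. On the recovered reads edgeR called 0 genes. DESeq2 called 5 (N4bp2, Col7a1 and Bdnf, with the predicted genes Gm9061 and Gm20597). The 3 libraries of one genotype lay entirely above or below those of the other for 1580 genes (10.8%), with 771 (5.26%) higher and 809 (5.52%) lower in Svil-KO. Log2 fold changes below 0 were found in 7255 genes (49.5%), and the median over all genes was 0.0025. The words higher and lower are used below for values, and no gene named below passed the adjusted test in the main limma fit. N4bp2 and Gm13341 passed in an alternative limma fit, given under the alternatives at the end.

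The size of difference that the data leave room for depended on the level of the gene. For the 4273 genes with a mean of at least 1000 normalized counts, the 95% interval of the log2 fold change reached a median of 0.24 to either side. It stayed within a 2-fold change in either direction for 4216 of them (98.7%) and within 1.5-fold for 3978 (93.1%). Abundant transcripts of this muscle fall in this class, such as the contractile Myh4, the glycolytic Pfkfb4 and the mitochondrial Cox6a2. Not all contractile genes do: the slow myosin Myh7 had a mean of 165 in WT and 892 in Svil-KO. Some genes of this class had wide intervals, among them Myh2 (-1.33 to 0.99) and Pdk4 (-1.39 to 0.68). For the 3019 genes with a mean under 50 the interval stayed within 2-fold for only 4.17%, and over all 14665 genes for 66.8%. A total of 756 genes had point estimates past 2-fold, and 217 of these had no overlap. Among the 4402 genes with a mean of at least 1000 in the higher genotype there were 3 past 2-fold, the predicted genes Gm2451, Gm13339 and Gm13341, named for this count alone, and in all 3 the genotypes overlapped.

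**Figure D1:**
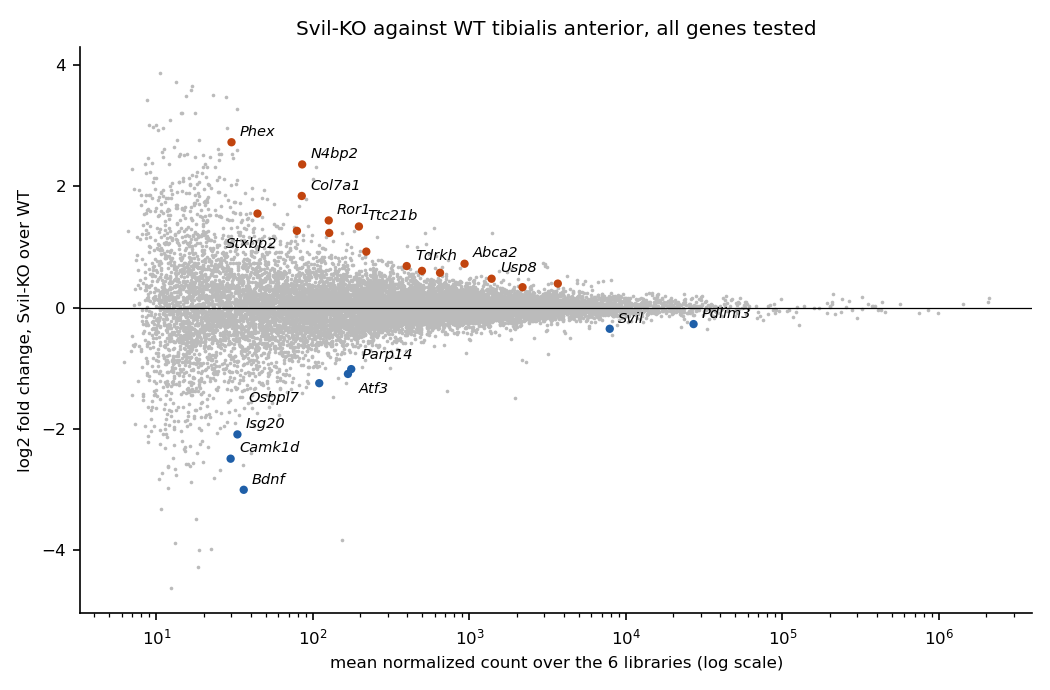
Log2 fold change of Svil-KO over WT (vertical axis) against the mean normalized count over the 6 libraries (horizontal axis, log scale), 1 point per gene for the 14665 genes tested. Coloured points are 24 genes with the smallest unadjusted limma p among those that do not overlap between the genotypes (orange higher, blue lower, 17 of them labelled). None passed the adjusted test in the main limma fit, and the cloud narrows from left to right.

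Genes with the smallest p were examined by what they encode, beginning with those of low level and large fold change. N4bp2, which carries a polynucleotide kinase domain, had 25.2, 21.2 and 36.7 in WT and 138, 152 and 139.6 in Svil-KO. Each Svil-KO library was above every WT library, the log2 fold change was 2.36 (95% interval 1.69 to 3.03), and the limma adjusted p of 0.153 was the smallest of all genes. In Svil-Mut the counts lay between, at 71.3, 66.8 and 82.3. Col7a1 encodes the collagen of anchoring fibrils, which fasten epithelium to its matrix, and stood at 27.3, 55.7 and 30.6 in WT and 127, 128 and 140.3 in Svil-KO (log2 fold change 1.84, limma adjusted p 0.958). The Svil-Mut libraries were also high, at 103, 129 and 104. For every other gene in the text the limma adjusted p of the main fit was at least 0.997.

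Bdnf, a neurotrophin that muscle fibres also release, was at 77.7, 43.5 and 70.3 in WT and 4.4, 4.08 and 16.7 in Svil-KO (log2 fold change -3.00, 95% interval -4.25 to -1.75). Svil-KO replicate 4 was the highest of its genotype and still below the lowest WT library, while the Svil-Mut libraries were at 71.3, 41 and 39.7. Camk1d, a calcium/calmodulin-dependent kinase, showed 28.4, 78.9 and 46.9 in WT and 6.6, 5.1 and 12.8 in Svil-KO (log2 fold change -2.49), with Svil-Mut at 32.6, 33.4 and 60.6. Ror1, a receptor tyrosine kinase-like receptor for Wnt5a, had 93, 64.8 and 47.9 in WT and 139.8, 205 and 207 in Svil-KO (log2 fold change 1.44), and the Svil-Mut libraries were at 93.7, 58.2 and 50.1. Phex, a membrane endopeptidase known for its part in phosphate balance and bone mineral, was at 10.9, 11.1 and 2.04 in WT and 77, 33.6 and 46.3 in Svil-KO, so that the counts behind its log2 fold change of 2.73 were few in WT. Atf3, a transcription factor induced by stress, had 267, 201 and 211 in WT and 121, 72.4 and 132 in Svil-KO (log2 fold change -1.09), against 933, 1246 and 771 in Svil-Mut. Its Svil-KO values lay below and its Svil-Mut values above all 3 WT values; the difference between Svil-KO and Svil-Mut was not tested here.

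Stxbp2, a Munc18 protein of exocytosis, was at 44.8, 44.5 and 47.9 in WT and 127, 115 and 94.9 in Svil-KO (log2 fold change 1.27), and the WT libraries were close to each other. Stxbp5, or tomosyn, which binds SNARE proteins, had 384, 391 and 401 in WT and 557, 540.1 and 709 in Svil-KO (0.61 on the log2 scale). Abca2, a lipid transporter of endosomes and lysosomes, was higher in every Svil-KO library, with 785, 615 and 693 in WT and 931, 1174 and 1384 in Svil-KO (0.72). Usp8, a deubiquitinase that acts on receptors at endosomes, stood at 1139.8, 1122 and 1206 in WT and 1566, 1493 and 1783 in Svil-KO (0.48, 95% interval 0.22 to 0.74). The GTPase-activating proteins Tbc1d8b and Rabgap1 had log2 fold changes of 0.92 and 0.34, and Ap3b1, a subunit of the AP-3 sorting adaptor, of 0.47. Osbpl7, a lipid-binding protein of the oxysterol-binding family, had lower values, 149.9, 103 and 215 in WT and 48.4, 69.3 and 72.6 in Svil-KO (-1.24). The transferrin receptor Tfrc, through which cells take up iron, was at 3155, 4101 and 3162 in WT and 5054, 4747 and 5120.4 in Svil-KO (0.53, 95% interval 0.12 to 0.94). In Svil-Mut Tfrc was 3058, 4409 and 2405, with 1 library above the WT range and the other two below it. Ap3b1 and Tfrc are named here for the size of their difference among genes of high level, not for their p.

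Among abundant genes, Pdlim3 had the smallest p. It encodes ALP, a PDZ and LIM protein of the Z-disc that binds alpha-actinin, and its counts were 29225, 29927 and 29549 in WT and 24564, 24639 and 24361 in Svil-KO. The libraries of each genotype lay close together and those of Svil-KO were the lower, a log2 fold change of -0.27 (95% interval -0.41 to -0.13), and Svil-Mut showed 29863, 34110.0 and 32329. Pcx, or pyruvate carboxylase, which refills the citric acid cycle with oxaloacetate, had 3064, 3148 and 3254 in WT and 3618, 4808 and 4122 in Svil-KO (0.40, 95% interval 0.18 to 0.62), and its Svil-Mut values of 3842, 3939.8 and 3925 were also above the WT range. Rcan1, an inhibitor and target of calcineurin, was at 5901, 5078 and 4559 in WT and 3265, 4008 and 3707 in Svil-KO (-0.50). Acss1, a mitochondrial acetyl-CoA synthetase (0.51), Mtmr10, a myotubularin-related protein (0.51), Slc25a33, a mitochondrial pyrimidine nucleotide carrier (0.49), and Rps6ka5, the kinase MSK1 (0.46), were also among the genes of high level with the largest differences among those without overlap. Of the remaining genes of small p, Tdrkh (0.69), the pseudouridine synthase Pus7 (0.58), Stard13 (1.23), Pfn4 of the profilin family (1.55) and the ciliary protein Ttc21b (1.34) had higher values. The exonuclease Isg20 (-2.09) had lower values.

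**Figure D2:**
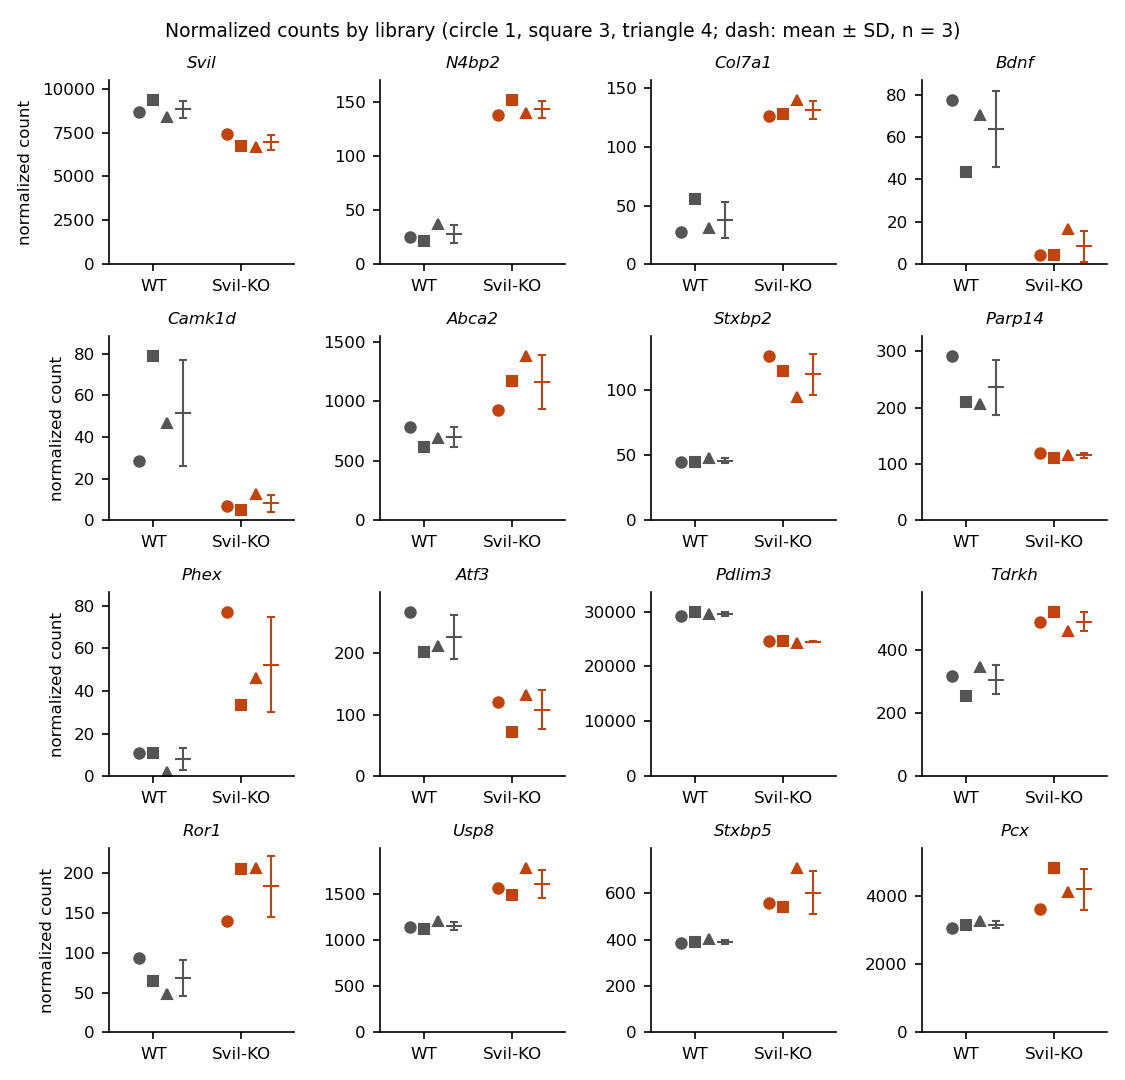
Normalized counts (vertical axes, each from 0) of Svil and the 15 other genes of smallest unadjusted p described in the text, by library, with grey for WT, orange for Svil-KO, marker shape for the replicate, and dashes with bars for the mean ± SD of 3 mice. The 2 genotypes do not overlap in any panel, which the choice of genes fixed.

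Cytosolic ribosomal protein genes, which encode the protein part of the ribosome, had lower values in Svil-KO almost throughout. Of 73 tested, 71 had a log2 fold change below 0, against 49.5% of all genes, and 35 (47.9%) had all Svil-KO libraries below all WT libraries, against 5.52% of all genes. None was higher without overlap, and 5 had an unadjusted limma p under 0.05, all lower (Rpl21, Rpl27, Rpl36, Rps15 and Rps15a). The differences were small, with a median log2 fold change of -0.12 and a range of -0.33 to 0.12. Rpl27, a protein of the large subunit, stood at 2821, 2595 and 2777 in WT and 2389, 2394 and 2271 in Svil-KO (-0.22, 95% interval -0.39 to -0.046). Rpl21, also of the large subunit, was at 541, 646 and 604 in WT and 499.6, 484 and 440.2 in Svil-KO (-0.33). For the small subunit, Rps15 had 2073, 2118 and 2240.5 in WT and 1745, 1883 and 1746 in Svil-KO (-0.26) and Rps15a 1361, 1536 and 1484 in WT and 1250.1, 1189 and 1222 in Svil-KO (-0.26). In these 4 genes each Svil-KO mouse was below each WT mouse. As a share of all counts, the ribosomal protein genes took 0.449%, 0.472% and 0.480% in WT and 0.430%, 0.429% and 0.417% in Svil-KO, again without overlap. In Svil-Mut the list's median level relative to WT was -0.054, -0.027 and 0.14 in replicates 1, 2 and 4, where the Svil-KO libraries were at -0.087, -0.094 and -0.18. The median stayed below 0 under equal totals (-0.14), under quantile normalization (-0.13) and with any 1 library left out (-0.16 to -0.087). In 50 of the 51 gene lists, leaving out 1 library moved the median by over 1.5 times or changed its sign; the ribosomal protein list was the other one. Ribosomal protein genes have many processed pseudogenes, and how reads shared with those copies were counted is not given in the sources used here.

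Transcripts of ribosomal proteins are known for a run of pyrimidines at their very start, through which their translation is controlled together. To show what such a run looks like, the 30 bases around the annotated start are printed for 6 ribosomal protein genes. The 30 bases are 15 on each side (RefSeq, GRCm38.p6, 5′ to 3′ on the gene's own strand), with the run in capitals. These 6 were chosen among genes that were lower without overlap and held a run, so they do not show how common it is. A run was counted where at least 7 consecutive C or T, including a C, touched the stretch from 3 bases before to 5 bases after the start, on the gene's strand only.
Rps15a: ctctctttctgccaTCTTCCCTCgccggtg
Rpl10a: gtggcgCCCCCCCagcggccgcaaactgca
Rpl35a: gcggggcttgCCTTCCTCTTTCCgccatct
Rpl28: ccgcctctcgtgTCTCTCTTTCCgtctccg
Rpl31: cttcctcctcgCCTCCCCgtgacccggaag
Rps26: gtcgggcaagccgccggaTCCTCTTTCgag
Rps15a (chr7:118116133-118116162, minus strand) and Rps26 (chr10:128626492-128626521, minus strand) lie on the reverse strand, and Rpl10a (chr17:28328456-28328485), Rpl35a (chr16:33056467-33056496), Rpl28 (chr7:4792950-4792979) and Rpl31 (chr1:39367836-39367865) on the plus strand. Of the ribosomal protein genes tested, 53 were found in the RefSeq table, and 24 (45.3%) held such a run, against 13.9% of 27025 genes of the table and 14.6% of 10479 genes tested. The run was present in 12 of 26 (46.2%) that were lower without overlap and in 12 of 27 (44.4%) of the others. Among the printed genes, the run of Rpl10a ends before the annotated start and that of Rps26 begins after it, while the other runs span it. An annotated start can differ by several bases from the one used in muscle.

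Lists of protein turnover and folding also held mostly lower values. Proteasome subunits, which degrade ubiquitinated proteins, had 29 of 31 below 0 (median -0.080) and 7 (22.6%) lower without overlap, against 5.52% of all genes, with Psmb2 at 7254, 6838 and 7019 in WT and 6391, 6346 and 6260.0 in Svil-KO (-0.15). The median was -0.052 without Svil-KO replicate 4. No proteasome gene had an unadjusted limma p under 0.05. Mitochondrial ribosomal proteins had 9 of 54 (16.7%) lower and 1, Mrpl46, higher without overlap (median -0.023), and Mrpl33 stood at 2740.1, 2805 and 2917 in WT and 2497, 2499.8 and 2264 in Svil-KO (-0.22). Their median turned to 0.019 without WT replicate 4. Heat shock chaperones had 23 of 31 below 0 (median -0.12, and -0.049 without WT replicate 4). Among these, Cryab, the small heat shock protein that protects desmin and the Z-disc, was at 20964, 26088 and 28593 in WT and 20899, 20317 and 18798 in Svil-KO (-0.32, 95% interval -0.56 to -0.088), and its Svil-Mut values, 17702, 15831 and 17223, were below those of Svil-KO. Hspb1, another small heat shock protein, was at 3843, 4517 and 5228 in WT and 3263, 3951 and 3198 in Svil-KO (-0.38), with 1 Svil-KO library inside the WT range. Hspa9, the mitochondrial Hsp70, was higher, at 23184, 21217 and 23997 in WT and 25983, 24237 and 25206 in Svil-KO (0.14).

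Fold changes also varied with the length of the gene's exons. This length merges all annotated exons of a gene and can exceed that of its transcript, as in Rps15a with 6270 bases. Among the 14073 tested genes (96%) with a length in the GENCODE annotation of GRCm38, split into 5 groups of nearly equal number, the median log2 fold change was -0.064 in the shortest, then -0.028, 0.0095 and 0.035, and 0.051 in the longest. Genes lower without overlap made up 9.8% of the shortest group and 3.06% of the longest, and genes higher without overlap 3.06% and 7.46%. Relative to the WT mean, the shortest group was at -0.029, -0.0055 and 0.046 in the WT libraries and at -0.054, -0.030 and -0.086 in the Svil-KO libraries, so WT replicate 4 and Svil-KO replicate 4 stood farthest apart. The ribosomal protein genes are short, with a median exon length of 1830 bases, and the part of length in their values was not tested beyond 1 correction. With trends of the fold change on length and GC content removed, the median of the ribosomal protein genes was -0.091, of the proteasome -0.059, of complex I of the respiratory chain -0.022 in place of -0.076, and of costamere genes 0.061 in place of 0.096.

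**Figure D3:**
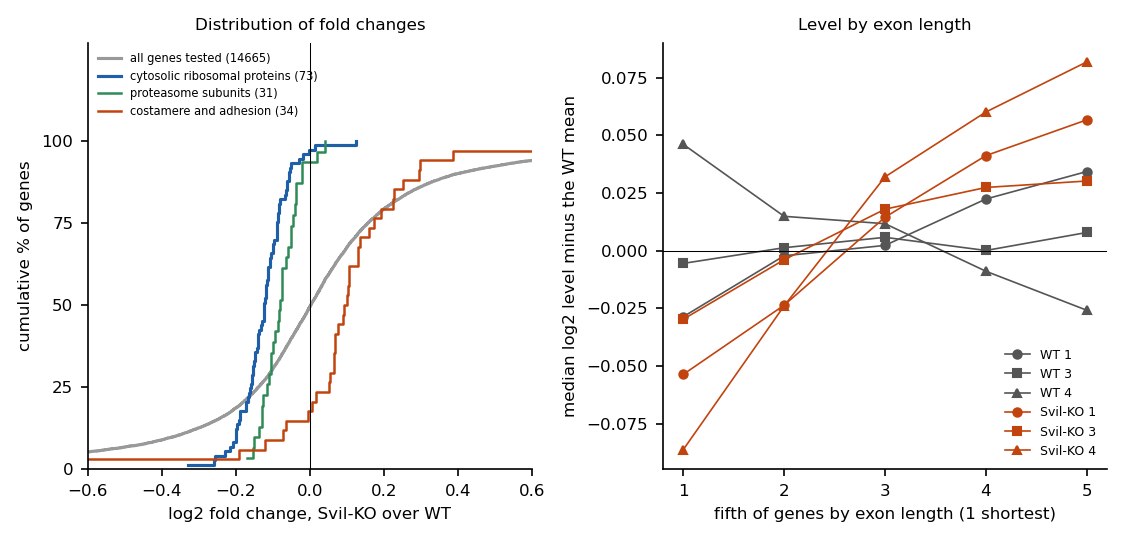
Left, cumulative percent of genes (vertical axis) by log2 fold change of Svil-KO over WT (horizontal axis) for all genes tested and 3 lists, with the number of genes in parentheses; the ribosomal protein curve rises almost wholly left of 0 and the costamere curve mostly right of it. Right, the median over genes of the log2 level minus the WT mean (vertical axis) in 5 groups of genes by exon length (horizontal axis, 1 for the shortest), 1 line per library; Svil-KO replicate 4 runs from -0.086 to 0.082 and WT replicate 4 in the opposite direction.

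Genes of the costamere, where supervillin is found, had higher values more often than lower ones. Of 34 tested genes of the costamere, dystrophin complex and integrin adhesion, 28 were above 0 (median 0.096), 4 (11.8%) were higher without overlap, against 5.26% of all genes, and 1, the parvin Parva, was lower. The median stayed between 0.061 and 0.11 in every alternative run. These genes are long, with a median exon length of 8226 bases. In the longest of the 5 length groups, 7.46% of genes were higher without overlap and the median was 0.051. Nos1, the neuronal nitric oxide synthase that is anchored to the dystrophin complex, was at 5365, 5087 and 5919.5 in WT and 6094, 6965 and 7024 in Svil-KO (0.29, 95% interval 0.10 to 0.49, limma p 0.00671). Sntb1, or beta-1 syntrophin, which binds dystrophin, had 113, 85 and 133 in WT and 262, 166 and 215 in Svil-KO (0.95). The membrane repair protein dysferlin (Dysf) stood at 1703, 1802 and 1823 in WT and 2128, 2266 and 1861 in Svil-KO (0.23), and vinculin (Vcl), which links integrins to actin, at 1329, 1380.2 and 1549.7 in WT and 1566, 2135 and 1579 in Svil-KO (0.30). In these 4 genes every Svil-KO library was above every WT library, though for dysferlin and vinculin the interval included 0. Dystrophin itself (Dmd) overlapped between the genotypes, at 4187, 2828 and 2889.5 in WT and 3765, 3214 and 3156 in Svil-KO, as did filamin C (Flnc), at 13412, 10673 and 14787 in WT and 13982, 13236 and 12776 in Svil-KO.

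The relatives of supervillin did not share a direction. Of 7 tested genes of the villin and gelsolin family, which include Svil itself, 5 were below 0. Gsn, the actin-severing protein gelsolin, was at 24525, 35703 and 20482 in WT and 20891, 23353 and 22672 in Svil-KO, with WT replicate 3 above the rest. Scin, or adseverin, was higher, with 77.7, 104 and 100.9 in WT and 114, 120.2 and 162 in Svil-KO (0.48), and Avil, or advillin, lower, with 24.1, 27.3 and 35.7 in WT and 9.9, 15.3 and 23.9 in Svil-KO (-0.85), both at low counts with intervals that included 0. Among 25 supervillin binding partners and genes of cortical actin, 18 were below 0 (median -0.096, and -0.046 without Svil-KO replicate 3) and 1 was lower without overlap. That gene, Myl9, a regulatory light chain of smooth and non-muscle myosin II, stood at 2738, 2602 and 2716 in WT and 2240.5, 2296 and 2469 in Svil-KO (-0.20). Its relative Myl12a, another such light chain, had 6864, 6229 and 7533 in WT and 6243, 5459 and 5732 in Svil-KO, where Svil-KO replicate 1 lay above the lowest WT library.

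The shares of the myosin heavy chains, which mark fibre types, overlapped between the genotypes. Per length of merged exons, Myh4, the fastest myosin (type 2B), made up 88.6% ± 2.47 (SD, n = 3) of 6 myosin heavy chains in WT and 88.9% ± 2.83 in Svil-KO. Myh1 (type 2X) made up 9.88% ± 2.16 and 9.85% ± 2.66, and Myh2 (type 2A) 1.47% ± 0.338 and 1.18% ± 0.264. Each of these differences was smaller than the SD in WT. Myh7, the slow myosin, stood apart in 1 mouse: its counts were 79.9, 333 and 82.5 in WT and 2476, 147 and 53.4 in Svil-KO. In the same Svil-KO replicate 1, the slow calcium pump Atp2a2 was at 4505 against 1083 to 1414 in the other 5 libraries, and Tnnc1, the slow troponin C, at 1429.5 against 103 to 281. The median log2 fold change of 16 slow fibre genes was 0.23 with this library and -0.12 without it. For bulk muscle, more slow fibres and more slow-type RNA per fibre cannot be told apart. Of 17 fast fibre genes, 11 were below 0 (median -0.041, and -0.0004 without Svil-KO replicate 4) and 1 was lower without overlap, Gpd1, a glycerol-3-phosphate dehydrogenase.

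Z-disc, M-band and thin filament genes had lower values in 33 of 42 (median -0.073, and -0.037 without Svil-KO replicate 4), with 4 lower (Pdlim3, Cryab, Myom3 and Myoz2) and 1 higher (Capn3) without overlap; the shares over all genes were 5.52% and 5.26%. Pdlim3 and Cryab, described above, were the 2 with an unadjusted limma p under 0.05. Myoz3, a calsarcin that binds calcineurin and alpha-actinin at the Z-disc, was at 1248, 1945 and 1556 in WT and 1115, 1294 and 1106 in Svil-KO (-0.41), and Myom1, the M-band protein myomesin, at 44049, 36283 and 38463 in WT and 45094, 42902 and 43568 in Svil-KO (0.15). Genes of excitation-contraction coupling and calcium handling were divided, with 18 of 34 above 0 (median 0.013, and -0.033 without WT replicate 1). Cacna1s, the voltage sensor of the T-tubule, had 27783, 24874 and 26043 in WT and 32401, 26139 and 31597 in Svil-KO (0.19). At the neuromuscular junction, Musk, the kinase that gathers acetylcholine receptors under the nerve ending, was at 630.1, 714 and 745 in WT and 809, 1046 and 956 in Svil-KO (0.42, 95% interval 0.071 to 0.77). Every Svil-KO library was above the WT range for Musk, and Svil-Mut lay at 636, 724 and 499. Chrnb1, the beta subunit of the acetylcholine receptor, had the opposite order, 983, 1203 and 1047 in WT and 939.8, 913 and 822 in Svil-KO (-0.27), and the list as a whole had 11 of 18 above 0.

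No gene of insulin response or glucose use passed the test. Among those of high level the intervals were narrow for Slc2a4, Akt2, Hk2 and Gys1 and wider for Irs2. Slc2a4, which encodes GLUT4, was at 28896, 26268 and 29029 in WT and 29811, 32273 and 30404 in Svil-KO; the Svil-KO libraries were above the WT libraries by a log2 fold change of 0.14 (95% interval -0.0083 to 0.28), and Svil-Mut stood at 30466, 30225 and 30750.0. Insr, the insulin receptor, was at 1676, 2117 and 1724 in WT and 1320.5, 1668 and 1648 in Svil-KO, all Svil-KO libraries being below the lowest WT one (-0.25, 95% interval -0.57 to 0.067), replicate 1 by the most. Without that library the log2 fold change of Insr was -0.14. The intervals of Slc2a4 and Insr included 0 and stayed within a 2-fold difference in either direction. The insulin receptor substrate Irs1 had 582, 542 and 439 in WT and 548, 917 and 678 in Svil-KO (0.43, 95% interval -0.067 to 0.93). Irs2 had 1119, 1116 and 972 in WT and 1738, 1312 and 1105 in Svil-KO (0.35, 95% interval -0.39 to 1.09). Akt2, the Akt kinase needed for glucose uptake, stood at 3815, 4649.5 and 3745 in WT and 3712, 4802 and 3746 in Svil-KO, a log2 fold change of 0.0023 (95% interval -0.27 to 0.27). Tbc1d4 (AS160), the Akt substrate that holds GLUT4 vesicles back, ranged widely within both genotypes, 628, 691 and 1019 in WT and 1089, 613 and 1136 in Svil-KO (95% interval -0.49 to 1.01). The intervals of Irs2 and Tbc1d4 reached past a 2-fold increase. Hexokinase 2 (Hk2) was at 9886, 9934 and 10185 in WT and 10769, 11414 and 10167 in Svil-KO (95% interval -0.065 to 0.28) and glycogen synthase (Gys1) at 27063, 25604 and 28137 in WT and 28868, 27990.0 and 29570.0 in Svil-KO (95% interval -0.14 to 0.33). All of these except Slc2a4 and Insr overlapped between the genotypes.

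The lists that hold these genes had at most 2 members separated in 1 direction. The shares were 5.26% higher and 5.26% lower for the insulin receptor list and 4% and 8% for GLUT4, against 5.26% and 5.52% of all genes. Among 19 genes of the insulin receptor, its substrates and brakes, 1 was higher (Trib3, which binds and restrains Akt) and 1 lower (Insr) without overlap, and none had an unadjusted limma p under 0.05 (median 0.075, 0.015 without Svil-KO replicate 1, and -0.0041 where only genes with a mean of at least 50 were kept). GLUT4 and its trafficking gave 1 of 25 higher (Slc2a4) and 2 lower (Aspscr1 and Rala) without overlap (median 0.027, and -0.0089 without Svil-KO replicate 3); Rala, a small GTPase of GLUT4 vesicle delivery, was lower, with 1932, 1919.5 and 1832 in WT and 1579, 1767 and 1754 in Svil-KO (-0.16). Genes of PI3K, Akt, FoxO and mTOR had 23 of 37 above 0. Within that list Tsc2, or tuberin, the brake on mTORC1, was higher, with 4929, 4312 and 4408 in WT and 5480.2, 5217 and 5638 in Svil-KO (0.26, 95% interval 0.055 to 0.47) and Sesn3, a FoxO target that restrains mTORC1, had 156, 216 and 187 in WT and 102, 162 and 78.2 in Svil-KO (-0.76). Of 27 glycolytic genes 16 were above 0 (median 0.018, and -0.041 without Svil-KO replicate 3), and Pfkfb4, which makes and breaks the activator of phosphofructokinase, was at 2022, 2269 and 2240.5 in WT and 2265, 2906 and 2714 in Svil-KO (0.27). The 20 glycogen genes had a median of 0.034 (0.0051 without Svil-KO replicate 3), with the branching enzyme Gbe1 at 4673, 4179 and 4701 in WT and 5159, 4739.7 and 5201 in Svil-KO. Pdk4, the kinase that closes pyruvate dehydrogenase when fat is burned, varied widely within both genotypes, 39432, 17331 and 52686 in WT and 17239, 19050.0 and 52098 in Svil-KO, and its interval was -1.39 to 0.68. Whether mice were fed or fasted at the time of collection is not stated in the labels.

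**Figure D4:**
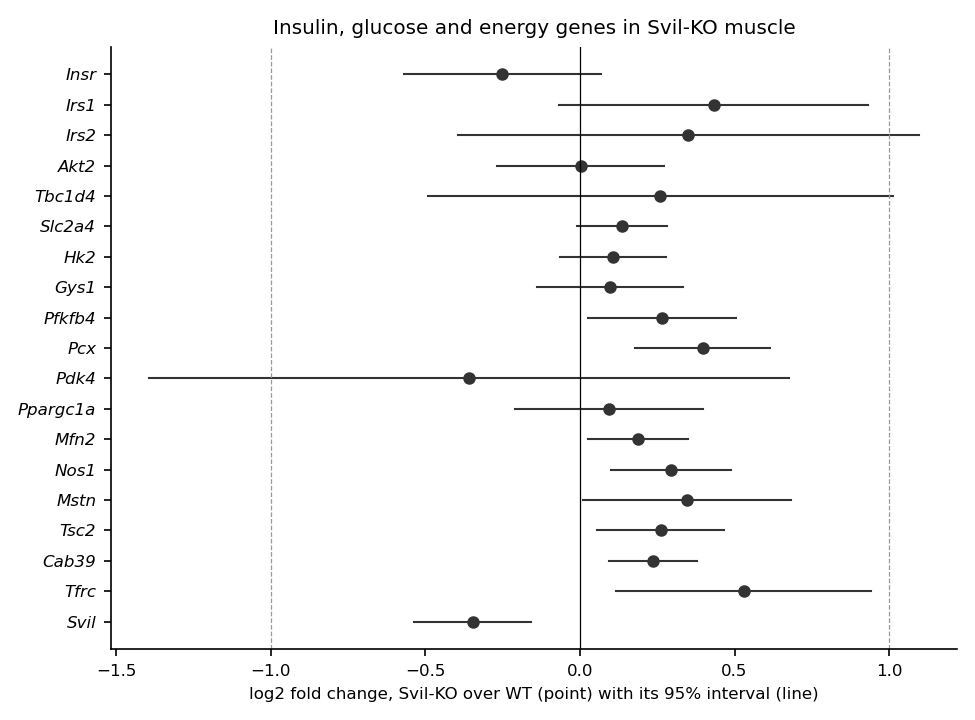
Log2 fold change of Svil-KO over WT (points, horizontal axis) with its 95% interval (lines) from the limma fit, 1 row per gene of insulin response, glucose use and energy balance, and Svil; dashed lines mark a 2-fold change in either direction. The intervals of Slc2a4 and Cab39 are the shortest, that of Pdk4 is the longest, and the point of Svil lies at -0.35.

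Mitochondrial genes showed small differences in both directions. Nuclear genes of complex I had 32 of 36 below 0 (median -0.076, and -0.021 without WT replicate 4), 4 (11.1%) lower (Ndufa12, Ndufb6, Ndufb11 and Ndufv3) and 1 higher (Ndufs1) without overlap, against 5.52% and 5.26% of all genes. Those of complexes III and IV and ATP synthase had 26 of 37 below 0 (median -0.053, and 0.017 without WT replicate 4) and 5 (13.5%) lower without overlap (Uqcr11, Cox5b, Cox6a2, Cox7a2 and Atp5j2). Cox6a2, the muscle form of a cytochrome oxidase subunit, was at 77210.0, 79242 and 83846 in WT and 75835, 64742 and 69091 in Svil-KO (-0.20) and Ndufb6 of complex I at 6523, 6254 and 6991 in WT and 5999, 5730.2 and 5929.9 in Svil-KO (-0.16). No respiratory gene in either list had an unadjusted limma p under 0.05. The median level of the complex I list was 0.11 above the WT mean in WT replicate 4 and -0.063 and -0.045 in WT replicates 1 and 3, where the Svil-KO libraries were at -0.053, -0.086 and -0.069. Transcripts of the 13 protein genes of the mitochondrial genome took 4.38% ± 0.456 of counts in WT and 4.62% ± 0.409 in Svil-KO (SD, n = 3).

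Genes of mitochondrial upkeep and energy sensing included several higher values. Gabpa, a subunit of the nuclear respiratory factor GABP, was at 1119, 1028 and 1224 in WT and 1497, 1324 and 1590.1 in Svil-KO (0.39, 95% interval 0.13 to 0.64). Mfn2, which fuses the outer membranes of mitochondria, stood at 30422, 27180.0 and 28903 in WT and 33400.0, 32145 and 32901 in Svil-KO (0.19), and Fis1, linked to mitochondrial fission, was lower, with 4953, 5615 and 5035 in WT and 4820.0, 4933 and 4446 in Svil-KO (-0.14). Ppargc1a, the coactivator PGC-1 alpha, overlapped at 1667, 1953 and 2453 in WT and 1944, 2409 and 2072 in Svil-KO. Of 30 genes of mitochondrial biogenesis, fusion and mitophagy, 4 (13.3%) were higher (Gabpa, Ppara, Mfn2 and Opa1) and 2 (6.67%) lower (Tfb1m and Fis1) without overlap, against 5.26% and 5.52% of all genes. Cab39 (MO25 alpha), the scaffold that activates the AMPK kinase LKB1, had tight values, 7582, 7406 and 7272 in WT and 8574, 8786 and 8838 in Svil-KO (0.24, limma p 0.00406). Of 34 genes of fatty acid uptake and oxidation, 0 were higher and 1 (2.94%) was lower without overlap, against 5.26% and 5.52% of all genes. That gene, Slc27a4, a fatty acid transport protein, was at 436, 351 and 368 in WT and 212, 311 and 313 in Svil-KO (-0.48). Of 31 genes of lipid synthesis and droplets 21 were above 0; Abhd5 (CGI-58), which activates the triglyceride lipase ATGL, was higher, with 1726, 1397 and 1879.8 in WT and 2017, 1888 and 2117 in Svil-KO (0.28), and the droplet coat protein Plin2 lower, with 1531, 1450.0 and 1518 in WT and 1307, 1319.7 and 1340.5 in Svil-KO (-0.18).

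Growth control genes held a few separated members. Mstn, or myostatin, which limits muscle size, was at 2084, 2541 and 1819.7 in WT and 2758, 3026 and 2365 in Svil-KO (0.34, 95% interval 0.0085 to 0.68), and Svil-KO replicate 4 lay below WT replicate 3. Smad3, which carries the myostatin and TGF-beta signal, had 3044, 3135 and 3119 in WT and 3642, 4366 and 4164 in Svil-KO (0.38), with 4421, 5839 and 3253 in Svil-Mut. The BMP arm had 15 of 20 genes above 0 (median 0.12) and 3 (15%) higher without overlap, against 5.26% of all genes. These 3 were the BMP receptor Bmpr1a (3432, 3526 and 3402 in WT and 4100.3, 3889 and 3913 in Svil-KO), and the signal carriers Smad1 (811, 771 and 662 in WT and 945, 823 and 993 in Svil-KO) and Smad5 (1107, 908 and 921 in WT and 1208, 1197 and 1212 in Svil-KO). Their log2 fold changes were 0.20, 0.30 and 0.31, and the median of the list was 0.043 without Svil-KO replicate 1. Of 25 genes of muscle atrophy ligases and autophagy, 1 (4%) was higher without overlap, against 5.26% of all genes. It was the ubiquitin ligase Fbxo30 (801, 819 and 818 in WT and 957, 865 and 1068 in Svil-KO). Of 22 p53 targets and growth arrest genes, 4 (18.2%) were higher (Cdkn1a, Bbc3, Ccng1 and Aen) and 0 lower without overlap, against 5.26% and 5.52% of all genes, with Ccng1, or cyclin G1, at 40490.0, 42275 and 39623 in WT and 48992, 44548 and 47011 in Svil-KO (0.20). Bbc3, or PUMA, an activator of cell death, was at 21.9, 35.4 and 10.2 in WT and 59.4, 39.7 and 55.8 in Svil-KO (1.30). Notch pathway genes had 22 of 29 above 0 (median 0.093, and 0.040 without Svil-KO replicate 1), with none higher and 1, the coactivator Maml2, lower without overlap.

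Immediate early genes, which respond quickly to handling and activity, were led by 1 mouse. Of 31 immediate early genes 21 were above 0 (median 0.15), but relative to the WT mean the median of the list was 0.69 in Svil-KO replicate 1, -0.17 in replicate 3 and -0.041 in replicate 4. Without Svil-KO replicate 1 the median log2 fold change was -0.13. Egr1, an early growth response factor, was at 144, 189 and 87.6 in WT and 2159, 107 and 84.5 in Svil-KO, and the nuclear receptor Nr4a1 at 6193, 6412 and 6961 in WT and 13696, 7666 and 6885 in Svil-KO. Replicate 1 was the high library in both, and it is also the one with the high slow fibre transcripts. Fos did not follow, at 287, 214 and 167 in WT and 245, 284 and 185 in Svil-KO, against 2739.8, 2732 and 2418 in Svil-Mut. Dusp6, a phosphatase of ERK, was at 774, 710.3 and 589 in WT and 887, 1047 and 758 in Svil-KO (0.37). In the clock list, Nr1d2 (REV-ERB beta), a repressor of the circadian oscillator, was higher, with 4490.3, 5509.6 and 4952 in WT and 5810.4, 6086 and 5752 in Svil-KO (0.24) and 16 of 21 genes were above 0. The time of day of collection is not given in the labels. Endoplasmic reticulum stress genes (19 of 29 below 0, median -0.062, and -0.025 without WT replicate 3), glucocorticoid-responsive genes (17 of 22 above 0, median 0.10, and 0.010 without WT replicate 1) and antioxidant genes (17 of 29 below 0, median -0.020, and -0.083 without WT replicate 3) each had at most 2 members separated in 1 direction.

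Interferon-stimulated genes had 9 of 43 (20.9%) lower without overlap, against 5.52% of all genes, and 1 higher, although the median was only -0.052 and 18 were above 0. Parp14, an ADP-ribosyltransferase, stood at 292, 210.5 and 206 in WT and 119, 110.1 and 116 in Svil-KO (-1.01, 95% interval -1.53 to -0.50). Iigp1, an immunity-related GTPase, was at 329.2, 323.8 and 216.0 in WT and 215.7, 160.0 and 153.9 in Svil-KO (-0.70, limma p 0.00725), and B2m, the light chain of MHC class I, at 3686, 4111 and 4031 in WT and 3458, 3448 and 2991 in Svil-KO (-0.26). Ifih1, the RNA sensor MDA5, was the gene higher without overlap, with 95.2, 71.8 and 104 in WT and 196, 109 and 111 in Svil-KO. Of 16 NF-kB feedback and cytokine genes, Nfkbiz, a regulator of NF-kB, was higher, with 19.7, 32.4 and 42.8 in WT and 69.3, 72.4 and 101.3 in Svil-KO (1.38) and Tnfaip3 (A20), which shuts the pathway off, lower, with 320.5, 175 and 212 in WT and 74.8, 134 and 144 in Svil-KO (-1.01). Collagens were split evenly, 15 of 29 above 0, and beside Col7a1 the basement membrane collagen Col18a1 was lower, with 398, 403 and 366 in WT and 167, 299 and 263 in Svil-KO (-0.72, limma p 0.0106).

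Markers of the other cells in a whole muscle were summed by library, since a bulk sample holds them all. Summed over 16 genes, fibroblasts and fibro-adipogenic progenitors came to 50178.0 to 73615 normalized counts in WT and 50531 to 53667 in Svil-KO, with WT replicate 3 the highest. The median of that list was -0.17 with WT replicate 3 and 0.060 without it. Tenocyte genes summed to 8200.7 to 15857 in WT and 9809.6 to 19984 in Svil-KO, where replicate 1 was highest. That list holds Egr1, at 2159 in the same library. Macrophage and leukocyte genes summed to 3012 to 4478 and 2872 to 6661, and the high library was Svil-KO replicate 3. In that library Ctss, a protease of macrophages, was at 380.1 against 44.8 to 68.8 in the others; Ncr1 was at 0 in all 6 libraries, and Itgam, Cd3g, Cd4, Cd8a, Cd79a and Ms4a1 were below 10. Adipocyte genes summed to 139820.0 to 268530.0 and 216850.0 to 263270.0, with Ucp1 at 0. Car3, a carbonic anhydrase that muscle fibres also express, made up 91.4% to 95.7% of that sum. Without Car3 the sums were 11648 to 13103 in WT and 10426 to 11441 in Svil-KO, which do not overlap, and most of what remained was Fabp4, a fatty acid binding protein that is also in the endothelial list. WT replicate 3, the library with the lowest sum, had the most of Plin1, the coat of fat droplets (8.75, 72.9 and 32.6 in WT and 9.9, 7.13 and 15.2 in Svil-KO), and the highest median level of the list, 0.56 above the WT mean. Red blood cell genes came to 9842 to 13969 and 7694 to 11739. Endothelial genes came to 45134 to 54771 and 45120.0 to 50327, and genes of pericytes and smooth muscle to 186640.0 to 207170.0 and 193220.0 to 207330.0. Desmin (Des), an intermediate filament of muscle fibres as well, made up 85.6% to 87.1% of the latter, and without it the sums were 26217 to 29064 and 26593 to 28384. Schwann cell and nerve genes ranged over 4605 to 5806 and 4329 to 6883, with the neurofilament genes Nefl and Nefh at 0. The ranges of the 2 genotypes overlapped in each of these sums except that of adipocyte genes without Car3. Whether they have a part in any gene described above was not tested.

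Satellite cells, the stem cells of muscle, were read from 14 genes, of which 7 were above 0 and 7 below, with Musk higher and Calcr lower without overlap. Calcr, the calcitonin receptor that keeps them at rest, was at 49.2, 15.2 and 12.2 in WT and 0, 0 and 2.39 in Svil-KO, and at 0 in all 3 Svil-Mut libraries. WT replicate 1 holds most of the WT signal. Myf5, a factor of the myogenic lineage, was at 50.3, 39.5 and 47.9 in WT and 40.7, 42.8 and 8.77 in Svil-KO, with Svil-KO replicate 4 alone low. Of 8 genes of developing and regenerating fibres none was separated, and Myh3, the embryonic myosin, stood at 275, 211 and 199 in WT and 264, 432 and 233 in Svil-KO. Svil-KO replicate 3 was thus the high library for Myh3 as well as for the leukocyte genes.

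**Figure D5:**
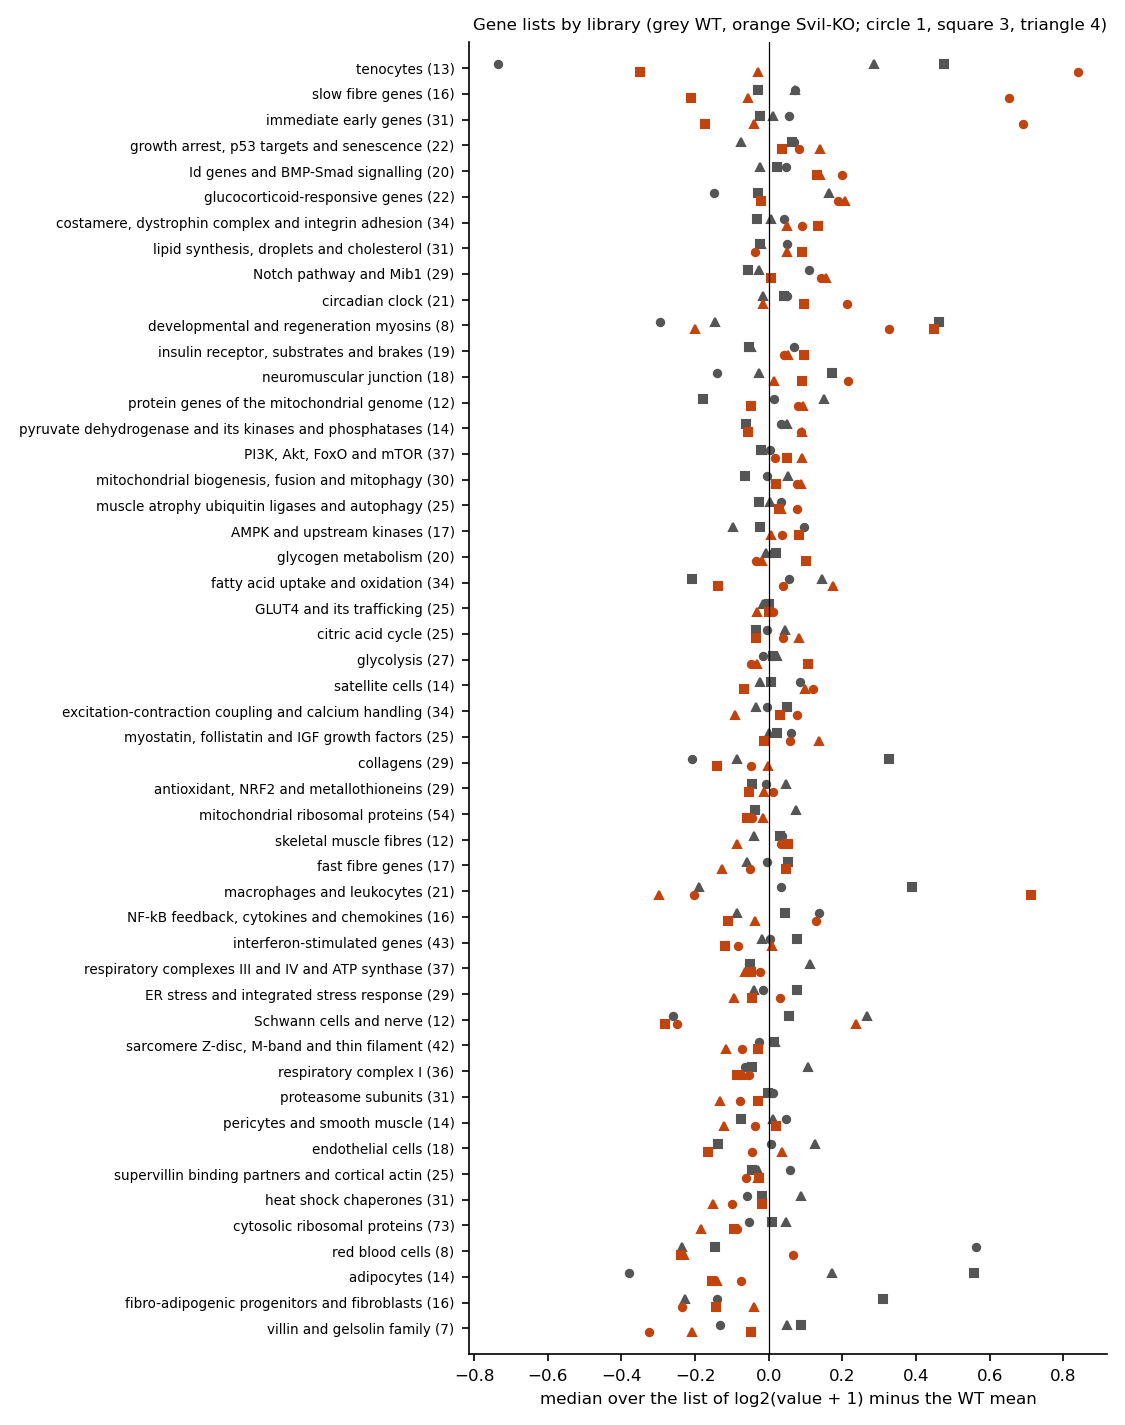
Median over each gene list of the log2 level minus the WT mean (horizontal axis), 1 point per library, with the number of genes tested in parentheses. Lists are ordered by their median log2 fold change, highest at the top, and the list of kidney, liver and skin genes is left out. Tenocyte, slow fibre and immediate early genes reach 0.65 to 0.84 in Svil-KO replicate 1 alone, leukocyte genes 0.71 in Svil-KO replicate 3, and the 3 Svil-KO points of the ribosomal protein list lie below 0.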

How the data were processed

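RNA was measured in whole TA muscle of 3 Svil-KO and 3 WT mice, with 3 Svil-Mut mice in the same fit. Per the labels' protocols, cDNA was primed on total RNA with oligo(dT), amplified with a SMARTer v4 kit and made into libraries with Nextera XT. The kit keeps no strand, so reads from overlapping genes on opposite strands cannot be told apart. Per the submitters' processing notes the tools were HISAT2, featureCounts and DESeq2 on mm10; no version, setting or gene annotation is named there. The deposited values are a signal per gene that the authors made by dividing counts by a size factor. All nonzero values (100%) were whole multiples of 1 read within 0.001, so whole reads were recovered. No molecular identifiers are described.

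Genes with a value of at least 10 in 3 of the 6 libraries were tested with limma 3.58.1 (R 4.3.3) on log2(value + 1), all 9 libraries in 1 fit with a mean-variance trend, Benjamini-Hochberg adjusted, called under 0.05. Alternatives were pseudocounts of 0.5 and 10, no filter, a mean of at least 50, equal totals, quantile normalization, no trend, robust variance, library weights, the 6 libraries alone, a replicate block, edgeR 4.0.16, DESeq2 1.42.0, an adjusted p of 0.1 and leaving out each library. Removal of length and GC trends, and marker sums without the most abundant gene, were chosen after seeing the data. Python 3.11.15 and matplotlib 3.10.9 drew the figures. The steps were tested on simulated data.

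The genes compared and the 51 gene lists, 40 of pathways and 11 of markers, were chosen with earlier results of these data known. A gene can be in more than 1 list. Named genes are Svil, its 3 nearest tested genes on each side, the 25 of smallest p without overlap (a mean of at least 50 in the higher genotype, no predicted genes), the 10 largest differences without overlap (a mean of at least 1000 in the higher genotype), up to 4 of smallest p per described list, and fixed genes of insulin, fibre type and costameres. Genes named only to complete a count stand outside this rule and were named after their values were seen. Of the genes the rule takes, 3 are not reported here. The main fit did not pair the samples by replicate number (correlations of same-numbered mice 0.018, 0.034 and 0.032). Positions and lengths came from GENCODE M21 (GRCm38), matched by symbol for 96% of tested genes.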

Additional observations from a re-analysis of the deposited data

How the results depend on the processing

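The count of genes called was 0 in 18 of the 21 alternatives run, leaving out each library included (range 0 to 0). It was 1 without the mean-variance trend (N4bp2, limma adjusted p = 0.0498), 1 with the replicate block (Gm13341, limma adjusted p = 0.0471) and 5 with DESeq2 (N4bp2, Col7a1, Bdnf, Gm9061 and Gm20597). The cause was not tested. Every mouse correlated best with the mouse of its own number, though at no more than 0.034. The design names no pairing, and whether the mice were paired was not tested. The replicate block, run on the 6 libraries alone, gave 878 genes at an unadjusted limma p under 0.05, against 747 for those libraries without it. Without the filter there were 1103 such genes, of 26202 tested; other alternatives gave 456 to 878 and leaving out a library 467 to 604. The share of them with higher values was 57.4%, 48.7% under equal totals and 66.4% without WT replicate 4. Svil kept its direction and its unadjusted p under 0.05 throughout, with log2 fold changes of -0.40 to -0.30 when a library was left out.

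Log2 fold changes under alternatives were followed for 52 genes, those of smallest p, those of largest difference and the fixed genes. Genes named only from a list or for their place near Svil were not followed. Of the 1035 values for the 52 genes, 20 changed sign, all in genes with intervals that include 0. Akt2 was -0.014 under equal totals, -0.0082 under quantile normalization, -0.0007 with library weights and -0.033 with length and GC trends removed. Myh4 was 0.0000 under quantile normalization. When a library was left out, Akt2 ranged from -0.12 to 0.10, Ppargc1a from -0.037 to 0.24, Myh1 from -0.027 to 0.30, Myh2 from -0.33 to 0.0092, Myh7 from -0.55 to 2.21, Flnc from -0.080 to 0.16, Dmd from -0.047 to 0.24, Mib1 from -0.44 to 0.061 and Fos from -0.076 to 0.31. Of the 51 lists, the medians of 25 changed sign in some alternative. Intervals were widest for the genes with a mean under 50, where they reached a median of 1.51 on the log2 scale to either side.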
